A study of Mus musculus with 30 samples.

Results

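The measurement described here is a difference of differences in female mice. The shift between PRL_Sh and Veh libraries in hind paw was taken, and the same shift in dorsal root ganglia (DRG), the clusters of sensory nerve cell bodies beside the spinal cord, was subtracted from it. The libraries were chosen by their titles: female, PRL_Sh or Veh, paw or DRG, with 3 libraries in each of the 4 groups, so 12 of the 30 libraries of the series. In order, the groups were paw PRL_Sh, paw Veh, DRG PRL_Sh and DRG Veh.

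All 4 groups came from female C57BL/6J mice aged 10 to 12 weeks. PRL_Sh animals received prolactin (1 µg into the plantar side of the paw) and the treatment of the others is labelled Veh; PBS is the only other injection the protocol names. The protocol lists 1 injection and a daily course of 12 days without assigning libraries to either, and the meaning of Sh is not given in the labels. PRL_Sh libraries were made from mRNA selected with a TruSeq kit, whereas Veh libraries were made from RNA depleted of ribosomal RNA with a KAPA kit. Within a tissue, prolactin and kit therefore cannot be told apart. The subtraction removes that part of the kit difference which is the same, as a ratio, in both tissues, and it leaves any part that is not. The labels do not state that the 3 replicates of a group are separate animals, so p-values measure the spread between these libraries. The series text counts 18 males and 12 females, while the titles name 18 female and 12 male libraries.

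Prolactin is a pituitary hormone that binds the prolactin receptor, Prlr, and signals through the kinase Jak2 and the transcription factors Stat5a and Stat5b. Cish and the Socs proteins are induced by this pathway and damp it. Prolactin sensitises sensory neurons, and in rodents this is stronger in females. Selection of mRNA by the poly(A) tail keeps tailed transcripts and loses RNAs without a tail, such as replication-dependent histone mRNAs, whereas rRNA depletion keeps both and also keeps more unspliced RNA.

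Gene reads numbered 21.8 to 26.5 M in the PRL_Sh libraries and 10.2 to 12.2 M in the Veh libraries. Between 42.2% and 56.8% of the counted reads fell in genes in PRL_Sh, against 23.8% to 27.2% in Veh. Reads outside any annotated feature made up 9.45% to 11.3% in PRL_Sh and 32.7% to 35.6% in Veh. The tissue labels matched their defining genes: Krt10, a keratin of the outer epidermis, averaged 22746 CPM (read counts scaled to library size by TMM) in paw PRL_Sh and 22461 CPM in paw Veh, against 22.1 CPM in DRG PRL_Sh and 18.6 CPM in DRG Veh. Scn10a, the tetrodotoxin-resistant sodium channel of nociceptors, averaged 0.550 CPM in paw PRL_Sh and 1.11 CPM in paw Veh, against 1041 CPM in DRG PRL_Sh and 1132 CPM in DRG Veh. One library stood apart from its group on some lists: DRG Veh replicate 1 had a summed level of 1491 CPM over 20 interferon-response genes, against 414.2 and 311.5 CPM in the other two DRG Veh libraries. Interferon and adipocyte results that rest on it are given with and without it.

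Most genes shifted between PRL_Sh and Veh in each tissue, and much of that shift was shared. Genes were called present in a tissue when their mean level over its 6 libraries was at least 1 CPM. Of 16055 genes tested, 12967 were present in both tissues, 1132 in paw only, 1322 in DRG only and 634 in neither. Among the genes present in both, 8849 (68.2%) passed the test of the paw shift, 38.4% as higher and 29.8% as lower (edgeR quasi-likelihood test, adjusted p under 0.05). For the DRG shift 7246 (55.9%) passed, 26.8% as higher and 29.1% as lower. Over all genes tested, the paw shift passed in 61.9% (34.5% higher, 27.4% lower) and the DRG shift in 50.3% (23.2% higher, 27.1% lower). These splits depend on the scaling. Of the DRG calls over all genes, 46.1% were higher, against 54.9% with DESeq2, 57.6% with upper quartile scaling and 66.4% with no filter. Of the paw calls 55.7% were higher, against 48.6%, 52.1% and 51.7% in the same settings. Across the genes present in both tissues, the paw and DRG shifts had a Pearson r of 0.69 and a Spearman rho of 0.64. The shifts share no library, and these values are a description over genes that are not independent. By SD over genes the net shift was the narrowest, at 0.79 against 1.03 for the paw shift and 0.99 for the DRG shift on the log2 scale. By other measures it was narrower than the paw shift only. The median absolute shift was 0.43 for the net shift, 0.57 for paw and 0.42 for DRG. Absolute shifts above 1 made up 16.0%, 24.4% and 14.8% of the genes in the same order.

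**Figure D1:**
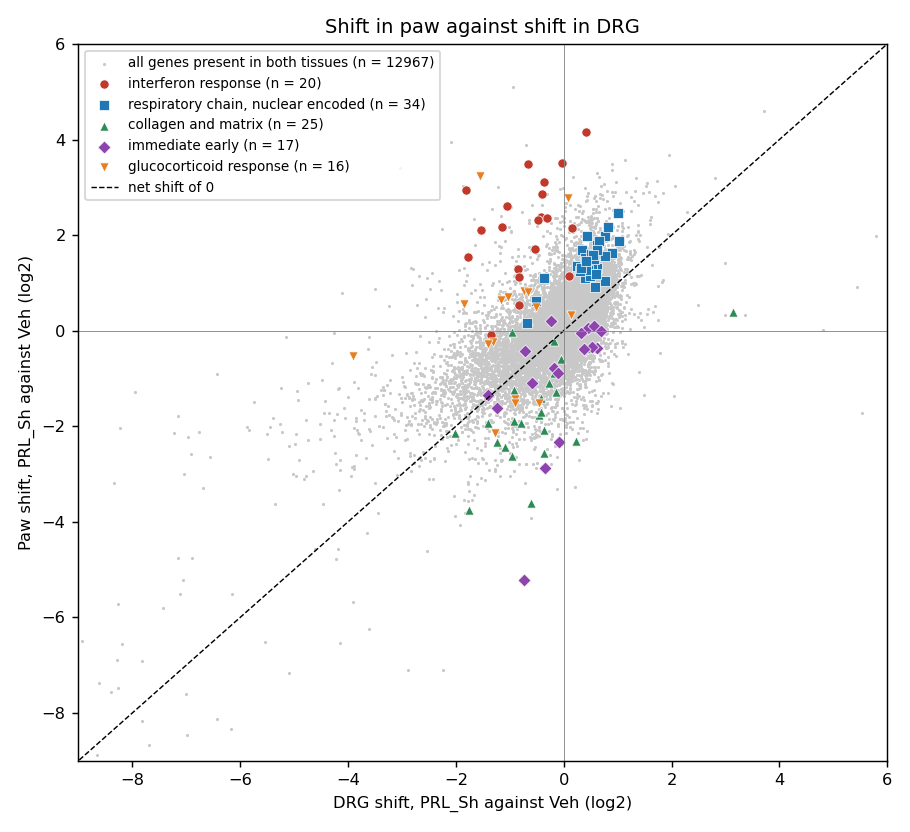
Paw shift (vertical axis) against DRG shift (horizontal axis), both PRL_Sh over Veh on the log2 scale, for the 12967 genes present in both tissues, with 5 gene lists marked and 21 genes outside the plotted range. The dashed line marks a net shift of 0: interferon-response and respiratory-chain genes lie above it, and most collagen and matrix genes lie below it.

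The net shift passed its own test in 5135 of the 12967 genes present in both tissues (39.6%), in 3619 as higher (27.9%) and in 1516 as lower (11.7%). Over all genes tested it passed in 5432 (33.8%), 23.7% as higher and 10.2% as lower, and over genes present in neither tissue in 45 (7.1%), 5.52% as higher and 1.58% as lower. A positive net shift means that the ratio of PRL_Sh to Veh was larger in paw than in DRG. The split of directions depends on where 0 is set. The median net shift of these genes was 0.20 on the log2 scale, and 70.5% of the calls were higher. With that median set to 0, 4738 genes passed, 2225 higher and 2513 lower, so that 47.0% were higher. Counts of higher and lower genes are read against these shares, and several list counts are also given with the median set to 0.

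A positive net shift arose in several ways. Of the 3619 genes that were net higher, 1180 rose in paw with no call in DRG, 844 rose in both, 719 fell in both, 601 fell in DRG with no call in paw, 237 rose in paw and fell in DRG, and 38 passed neither single-tissue test. Of the 1516 that were net lower, 711 fell in paw with no call in DRG, 336 fell in both, 254 rose in DRG with no call in paw, 170 fell in paw and rose in DRG, 28 passed neither test and 17 rose in both. A net call alone therefore does not say in which tissue a gene changed, and both single-tissue shifts are given below. These counts were taken with TMM scaling only, and the split of single-tissue calls depends on the scaling.

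RNAs without a poly(A) tail are a check on the subtraction, since selection by the tail loses them. The replication-dependent histone mRNAs, which end in a stem-loop in place of a tail, had a median shift of -7.10 in paw and -6.16 in DRG on the log2 scale over 55 tested genes. Their median net shift was -0.60, and 6 were net higher (10.9%) and 8 net lower (14.5%), against 23.7% and 10.2% of all genes tested. Hist1h4d, a histone H4 gene, had a paw shift of -9.31, a DRG shift of -9.23 and a net shift of -0.07 ± 1.13 (edgeR adjusted p = 0.981). Here and below, ± gives an error implied by the test, the absolute shift divided by the square root of its F statistic. For Hist1h4d it was 0.25 in paw and 0.28 in DRG beside 1.13 for the net shift, so it understates the error of large shifts with few reads. Hist1h1e, a linker histone gene, did not cancel: it had 2.50, 1.79 and 3.96 CPM in paw PRL_Sh against 141, 151 and 134 CPM in paw Veh, and 1.61, 1.85 and 2.03 CPM in DRG PRL_Sh against 27.9, 27.3 and 27.8 CPM in DRG Veh. PRL_Sh was below Veh in every pair of libraries in both tissues, and the net shift was -1.77 ± 0.28 (edgeR adjusted p = 0.000711). The histone genes are clustered copies, so reads shared among them make single values uncertain.

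Some nuclear RNAs fell further in DRG than in paw, and others did not. Malat1, an abundant nuclear RNA, had a paw shift of -4.75 and a DRG shift of -7.16, and a net shift of 2.41 ± 0.28 (edgeR adjusted p = 0.000126). Its level was 677 to 1050 CPM in paw PRL_Sh and 21230 to 23007 CPM in paw Veh, against 215 to 275 CPM in DRG PRL_Sh and 33082 to 34380 CPM in DRG Veh. Xist, the RNA that coats the inactive X chromosome, and Kcnq1ot1, an antisense RNA of the Kcnq1 imprinted locus, were net higher by 1.5 and 2.13. Scarna2, a guide RNA of the Cajal body, had no read in the 3 DRG PRL_Sh libraries, where 3 reads over the group would be 0.0369 CPM. Against that floor its net shift was at least 2.41 on the log2 scale. Of the 15 nuclear-retained long noncoding RNAs, 8 were net higher and 2 net lower, and 6 and 3 with the median set to 0. Of the 14 present in both tissues, 7 had a positive and 7 a negative net value, with a median shift of -0.67 in paw and -0.32 in DRG, and Miat, a neuronal nuclear RNA, was net lower by -1.59. Of 35 other RNAs without a tail, 5 were net higher (14.3%) and 0 net lower, against 23.7% and 10.2% of all genes tested. Of the 12 present in both tissues, 10 had a positive value. The difference between PRL_Sh and Veh thus did not cancel for several of these RNAs. Whether kit or prolactin gave the part that was left cannot be told apart. Whether the kit difference cancelled for any one tailed mRNA was not tested.

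Transcript length moved with the shifts as well. For 12685 of the 12967 genes (97.8%), the longest transcript in GENCODE M21 could be matched. In the quartile with the shortest transcripts, up to 2321 nt, the median shift was 0.72 in paw and 0.37 in DRG. In the quartile with the longest, from 4959 nt, it was -0.58 in paw and -0.64 in DRG. The net shift had medians of 0.40, 0.16, 0.07 and 0.14 from the shortest to the longest quartile.

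**Figure D2:**
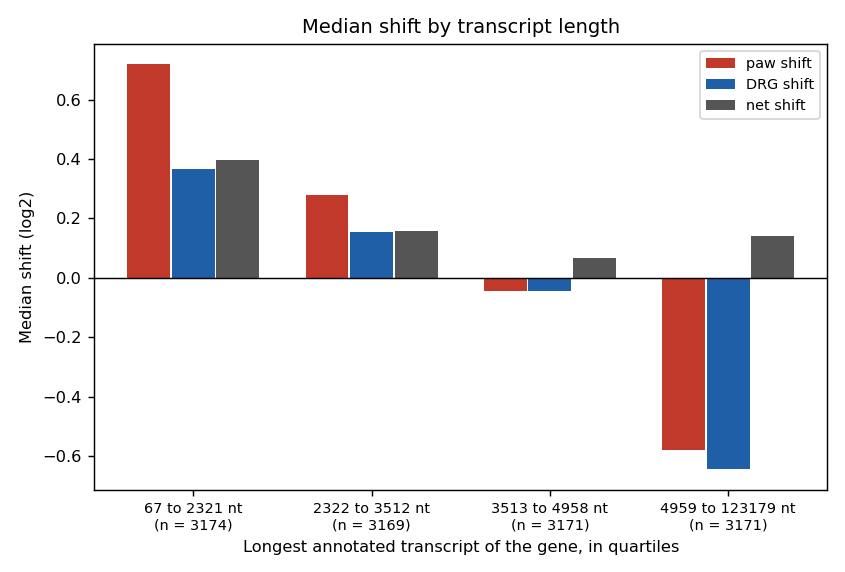
Median log2 shift of genes present in both tissues, in quartiles of their longest annotated transcript, as bars for paw, DRG and net shift. Single-tissue medians run from 0.72 and 0.37 in the shortest quartile to -0.58 and -0.64 in the longest, while net medians stay between 0.07 and 0.40.

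Interferon-response genes formed the list with the largest positive median net shift of the 32 examined. These genes are switched on by type I and type II interferons through STAT and IRF transcription factors and encode antiviral proteins. All 20 were present in both tissues, and 18 were net higher and 0 net lower, with a median net shift of 3.04 against 0.19 over all genes tested. In paw 17 of them rose, and in DRG 4 fell and 0 rose. Ifih1, an RNA sensor, was among the members that missed the test, with a net shift of 1.27 (edgeR adjusted p = 0.0684). With the median set to 0, 16 were net higher. Cells of a type and RNA per cell cannot be told apart in these bulk tissues, for these genes or any below.

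Isg15, a ubiquitin-like protein conjugated to other proteins during antiviral responses, had 17, 24.8 and 18.1 CPM in paw PRL_Sh, against 1.41, 0.981 and 0.974 CPM in paw Veh. In DRG it had 7.85, 9.93 and 9.92 CPM in PRL_Sh, against 13.9, 4.68 and 2.25 CPM in Veh. The paw groups did not overlap, whereas the DRG groups did. Its net shift was 3.73 ± 0.71 (edgeR adjusted p = 0.00227). Irf7, the transcription factor that amplifies type I interferon production, had 65.8, 78.1 and 68.6 CPM in paw PRL_Sh against 9.38, 7.49 and 7.69 CPM in paw Veh, and 7.06, 15.3 and 11.7 CPM in DRG PRL_Sh against 30.5, 7.4 and 5.83 CPM in DRG Veh. Again only the paw groups were separate, and the net shift was 3.47 ± 0.69 (edgeR adjusted p = 0.00291). Ifit3, an antiviral protein with tetratricopeptide repeats, and Rsad2, the antiviral enzyme viperin, had net shifts of 4.15 ± 0.80 (edgeR adjusted p = 0.00232) and 3.32 ± 0.68 (edgeR adjusted p = 0.00327). Cxcl10, a chemokine induced by interferon gamma, and Gbp10, a guanylate-binding protein, were among the 10 genes with the largest positive net shift at 4.90 ± 1.17 and 6.43 ± 1.40, and without DRG Veh replicate 1 they had 3.16 (edgeR adjusted p = 0.0145) and 3.19 (edgeR adjusted p = 0.0277).

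The size of the interferon net shift leaned on DRG Veh replicate 1. The mean log2(CPM + 1) over the 20 genes was 4.12, 4.77 and 4.51 in paw PRL_Sh, against 2.69, 2.61 and 2.57 in paw Veh. In DRG it was 3.39, 3.98 and 3.87 in PRL_Sh, against 5.32, 3.66 and 3.18 in Veh. Without DRG Veh replicate 1, the median net shift of the list was 1.73 and 14 of 20 genes were net higher. Isg15 then had a net shift of 2.76 (edgeR adjusted p = 0.00111), Irf7 of 2.35 (edgeR adjusted p = 0.00129), Ifit3 of 2.99 (edgeR adjusted p = 0.00057) and Rsad2 of 2.64 (edgeR adjusted p = 0.00527). With limma voom and library quality weights, 11 of 20 passed, with a median of 1.69.

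**Figure D3:**
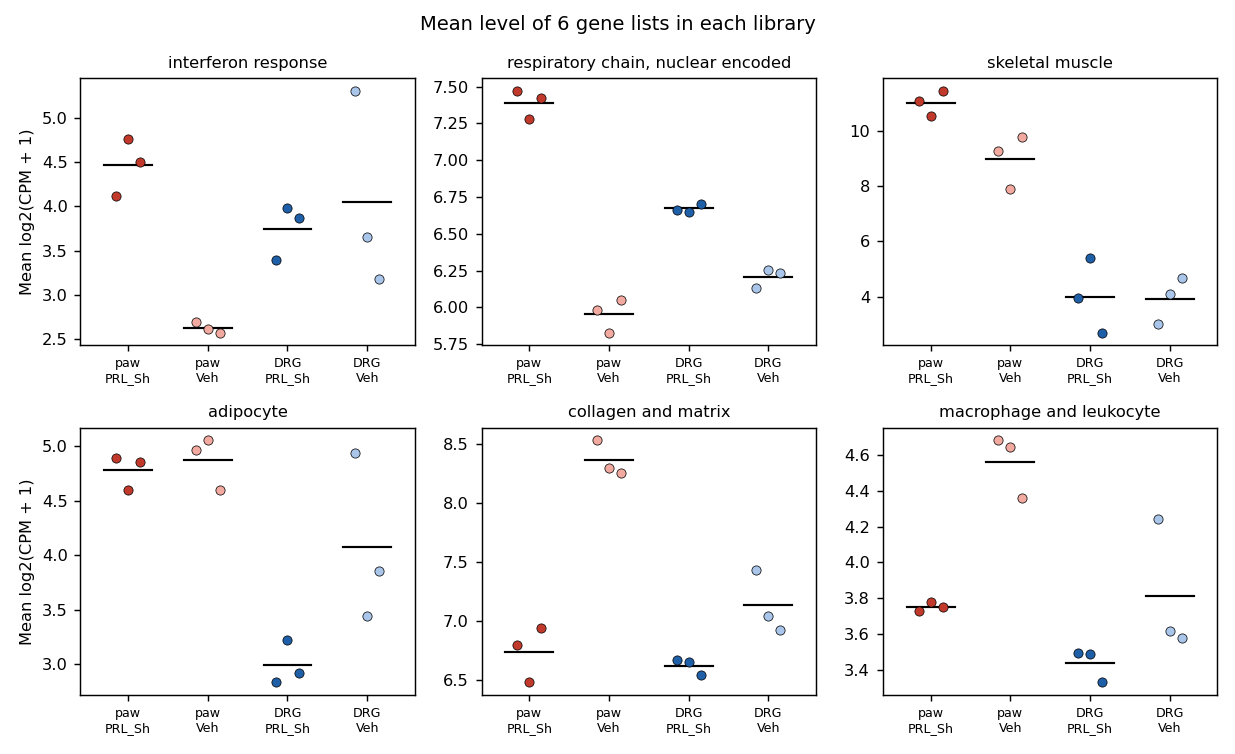
Mean log2(CPM + 1) over the genes of 6 lists in each library, with a line at the group mean; each panel has its own vertical axis. DRG Veh replicate 1, at 5.32, lies above every other library on the interferon list, and the 3 paw PRL_Sh libraries, at 4.12 to 4.77, lie above the 3 paw Veh libraries, at 2.57 to 2.69.

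Interferon-stimulated response elements are the promoter sites bound by STAT2 and IRF9 complexes and by the IRF factors. The promoters of Isg15, Ifit3 and Rsad2 are shown because these genes carry the paw rise and hold a match to a short form of the element, GAAA followed by any 2 bases and GAAA, searched on both strands and in capitals below. The sequences are from RefSeq on GRCm38.p6, from 250 bases before to 50 after the start, read 5′ to 3′ on the strand of the gene. Isg15 is at chr4:156200769-156201068 on the minus strand, with 3 overlapping matches that begin 78, 72 and 66 bases before the start. Ifit3 is at chr19:34583279-34583578 on the plus strand, with 2 matches, and Rsad2 at chr12:26456403-26456702 on the minus strand, with 1.
Isg15: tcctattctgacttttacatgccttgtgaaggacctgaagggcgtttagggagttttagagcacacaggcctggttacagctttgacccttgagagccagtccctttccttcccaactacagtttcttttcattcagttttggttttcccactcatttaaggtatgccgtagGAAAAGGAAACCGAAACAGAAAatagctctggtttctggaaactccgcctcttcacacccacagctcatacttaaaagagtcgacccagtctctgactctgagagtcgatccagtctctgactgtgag
Ifit3: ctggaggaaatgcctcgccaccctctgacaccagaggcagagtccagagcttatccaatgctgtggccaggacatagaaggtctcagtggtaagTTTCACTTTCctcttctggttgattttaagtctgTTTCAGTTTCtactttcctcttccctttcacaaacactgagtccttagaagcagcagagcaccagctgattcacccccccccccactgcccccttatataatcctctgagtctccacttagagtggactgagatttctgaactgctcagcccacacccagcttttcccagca
Rsad2: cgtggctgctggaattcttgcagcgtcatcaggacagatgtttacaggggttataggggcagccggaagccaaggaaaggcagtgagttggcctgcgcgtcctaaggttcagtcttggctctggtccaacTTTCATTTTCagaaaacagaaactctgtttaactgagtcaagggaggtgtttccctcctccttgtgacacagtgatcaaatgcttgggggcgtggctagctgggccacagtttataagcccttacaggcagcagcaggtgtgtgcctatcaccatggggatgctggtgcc
Of the 13 interferon-response genes with a promoter entry, 9 (69.2%) held a match, against 1079 of 27025 genes in the table (3.99%). The other members of the list of 20 had no entry. Because the list is made of known interferon-response genes, this share describes the list and says nothing about these libraries. The Irf7 window held none, which says only that these letters are not in it.

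Genes induced by glucocorticoids were mostly net higher, with a median shift of 0.41 in paw and -0.97 in DRG. Of 16 genes, all present in both tissues, 10 were net higher and 3 net lower, the same counts with the median set to 0. In paw 8 rose and 4 fell, and in DRG 0 rose and 13 fell. Pdk4, the kinase that turns off pyruvate dehydrogenase during fasting, had 396, 188 and 369 CPM in paw PRL_Sh against 41.8, 21.4 and 37.6 CPM in paw Veh, and 18.9, 17.5 and 18.2 CPM in DRG PRL_Sh against 57.3, 58.1 and 44.6 CPM in DRG Veh. PRL_Sh lay above Veh in paw and below it in DRG, with no overlap in either. The net shift was 4.79 ± 0.40 (edgeR adjusted p = 1.64e-05).

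Fkbp5, a chaperone that holds back the glucocorticoid receptor, rose in paw by 0.65 and fell in DRG by 1.17 on the log2 scale, for a net shift of 1.81 ± 0.20 (edgeR adjusted p = 9.66e-05). Tsc22d3, the glucocorticoid-induced leucine zipper, also had opposite shifts of 0.70 in paw and -1.03 in DRG, and a net shift of 1.73 ± 0.18. The metallothioneins Mt1 and Mt2, which bind zinc and copper, were net higher by 1.49 and 2.41. Zbtb16, a zinc-finger transcription factor induced by steroids, differed mainly in DRG: it had 58.4, 22.6 and 46.6 CPM in paw PRL_Sh against 60.6, 56.7 and 67.7 CPM in paw Veh, and 7.67, 6.92 and 5.97 CPM in DRG PRL_Sh against 94.5, 115 and 99.6 CPM in DRG Veh. Its net shift was 3.37 ± 0.37. The 3 genes that were net lower were Dusp1, a phosphatase that turns off MAP kinases, Per1, a clock gene, and Errfi1, an inhibitor of the EGF receptor, at -1.04, -0.86 and -0.60. These are also induced quickly by growth factors or stimulation.

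Nuclear-encoded subunits of the respiratory chain, which build the complexes of oxidative phosphorylation in mitochondria, were net higher as a block. All 34 were present in both tissues, 32 were net higher and 0 net lower, and 31 were higher with the median set to 0. In paw 33 rose and in DRG 30 rose and 3 fell, so most rose in both tissues and further in paw. Ndufa2, a subunit of complex I, had 104, 91.6 and 94.3 CPM in paw PRL_Sh against 18.2, 16.4 and 17.9 CPM in paw Veh, and 42.1, 44.7 and 44.7 CPM in DRG PRL_Sh against 20.8, 22.6 and 22.3 CPM in DRG Veh. PRL_Sh was above Veh in both tissues without overlap, and the net shift was 1.46 ± 0.11 (edgeR adjusted p = 1.03e-05). Ndufb5 of complex I was net higher by 1.54 ± 0.13 and Cox7a2 of complex IV by 1.35 ± 0.09. Uqcrb of complex III rose in paw by 1.10 and fell in DRG by 0.37, for a net shift of 1.47 ± 0.11.

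Several measured values moved with the respiratory chain. Of its 34 genes, 27 were in the shortest quartile of transcripts, where the median net shift was 0.40, against a list median of 1.01. Skeletal muscle, which is rich in mitochondria, was present in the paw libraries: the 20 muscle genes summed to 38714 to 73695 CPM in paw PRL_Sh and 18540 to 71500 CPM in paw Veh, against 159.4 to 1723 CPM in DRG PRL_Sh and 350.8 to 1687 CPM in DRG Veh. In paw 13 muscle genes rose and 1 fell, but 2 were net higher (10%, against 23.7% of all genes tested). None was net lower, and the median net shift was 1.35. Without DRG PRL_Sh replicate 2 the count was 8, and without paw Veh replicate 3 it was 5, whereas in the fit of 18 female libraries it was 0. Myh2, a fast myosin heavy chain, and Pvalb, the calcium buffer parvalbumin, were those 2, at 2.90 ± 0.69 and 2.09 ± 0.62, the second missing the test by a small margin when any of 3 libraries was left out. In the 18-library fit they had 2.87 (edgeR adjusted p = 0.271) and 2.05 (edgeR adjusted p = 0.178). With the mean muscle level of each library as a covariate, 31 of the 34 respiratory-chain genes were net higher, with a median of 0.87. The part of transcript length was not tested.

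Cytosolic ribosomal proteins were net higher in 16 of 39 genes and net lower in 0, but the count fell to 9 with the median set to 0 and to 6 with no filter on low counts. Of the 35 present in both tissues, 30 were in the shortest quartile of transcripts. Rpl22 and Rps2 were net higher by 0.82 ± 0.13 and 0.76 ± 0.14. Rps20 rose in paw by 0.35 and fell in DRG by 0.65, a net shift of 1.00 ± 0.17 (edgeR adjusted p = 0.00119). Ribosomal protein genes have many processed pseudogenes, so reads that map to several copies make their counts uncertain.

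Dividing-cell genes were net higher in 8 of 22 (36.4%), with 0 net lower, not far from the 27.9% of all genes present in both tissues. With no filter 5 were net higher and 1 net lower. Top2a, the topoisomerase that untangles replicated chromosomes, had 112, 163 and 116 CPM in paw PRL_Sh against 117, 126 and 99.6 CPM in paw Veh, and 5.20, 3.38 and 4.29 CPM in DRG PRL_Sh against 20.2, 12.1 and 11.7 CPM in DRG Veh. Its paw groups overlapped and its DRG groups did not, and the net shift was 1.95 ± 0.32 (edgeR adjusted p = 0.000872). Mki67, a protein of the mitotic chromosome surface, fell in both tissues, by 0.79 in paw and by 2.72 in DRG. Cdk1, the kinase that drives mitosis, rose in paw by 1.12 and had a net shift of 1.93 ± 0.45.

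Glial genes moved in both directions. Among 21 genes of Schwann cells and satellite glia, 8 were net higher (38.1%) and 3 net lower (14.3%), against 23.7% and 10.2% of all genes tested. Mag, a glycoprotein of the myelin sheath, had 5.36, 5.66 and 6.14 CPM in paw PRL_Sh against 1.41, 1.52 and 1.56 CPM in paw Veh, and 159, 161 and 122 CPM in DRG PRL_Sh against 87.5, 76.8 and 72.9 CPM in DRG Veh. It rose in both tissues, and further in paw, with a net shift of 1.04 ± 0.22 (edgeR adjusted p = 0.00376). Sox10, the transcription factor of the glial lineage, was net higher by 1.05 ± 0.21. L1cam, a cell adhesion molecule that neurons also make, and Erbb3, the neuregulin receptor of Schwann cells, were net lower by -0.73 ± 0.16 and -0.58 ± 0.12.

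Adipocyte genes were net higher in 7 of 18 (38.9%, against 23.7% of all genes tested) and net lower in 0. With the median set to 0, 3 of 18 were higher. Leaving out DRG PRL_Sh replicate 1 or DRG Veh replicate 1 gave 3, and leaving out paw PRL_Sh replicate 3 or paw Veh replicate 3 gave 4. Of the 16 present in both tissues, 2 rose and 2 fell in paw, whereas 12 fell in DRG. Plin4, a coat protein of lipid droplets, had 180, 65.6 and 184 CPM in paw PRL_Sh against 116, 86.8 and 91.4 CPM in paw Veh, and 5.63, 6.02 and 5.01 CPM in DRG PRL_Sh against 52.0, 30.5 and 27.5 CPM in DRG Veh. The list summed to 1065 to 1199 CPM in DRG PRL_Sh and 1423 to 2267 CPM in DRG Veh, the highest in DRG Veh replicate 1. Without that library the list median was 0.60, against 1.21 with it, and Fabp4, the fatty acid carrier of adipocytes, had 1.60 (edgeR adjusted p = 0.0530), against 2.70 ± 0.79 with it. Fabp4 also missed the test without DRG PRL_Sh replicate 1 (edgeR adjusted p = 0.0514).

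Collagen and matrix genes held more net lower members than any other of the 32 lists. Of 25, all present in both tissues, 17 were net lower and 1 was net higher. In paw 21 fell and 0 rose, and in DRG 12 fell and 2 rose. Their median net shift was -1.10, and 19 were lower and 0 higher with the median set to 0. Col14a1, a fibril-associated collagen, had 7.18, 6.53 and 7.07 CPM in paw PRL_Sh against 100, 89.9 and 63.8 CPM in paw Veh, and 82.7, 81.9 and 61.9 CPM in DRG PRL_Sh against 133, 112 and 101 CPM in DRG Veh. PRL_Sh was below Veh in both tissues without overlap, and by far more in paw. The net shift was -3.0 ± 0.24 (edgeR adjusted p = 1.5e-05).

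Other matrix genes followed this pattern to different degrees. Eln, the elastin precursor, had a paw shift of -2.31 and a DRG shift of 0.23, and a net shift of -2.53 ± 0.40 (edgeR adjusted p = 0.000673). Col5a1, a collagen that nucleates fibrils, was net lower by -2.20 ± 0.29, and Fbn1, the microfibril protein fibrillin, by -1.98 ± 0.32. The main fibrillar chains Col1a1 and Col3a1 were net lower by -1.34 and -1.67. Lox, the enzyme that crosslinks collagen and elastin, was the member that was net higher, at 0.92 ± 0.29 (edgeR adjusted p = 0.027), and Dcn, a proteoglycan that binds collagen, had a net shift of -0.03 (edgeR adjusted p = 0.947). Of the 25 genes, 15 were in the longest quartile of transcripts, where the median net shift was 0.14. Without DRG Veh replicate 3, 11 of 25 were net lower.

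Of 17 immediate early genes present in both tissues, which are transcribed within minutes of stimulation, 10 fell in paw and 0 rose. Of 19 tested, 8 were net lower and 1 was net higher, and 13 and 0 with the median set to 0. Without DRG PRL_Sh replicate 2, 5 were net lower. Fosb, a subunit of the AP-1 transcription factor, had 3.09, 3.67 and 4.47 CPM in paw PRL_Sh against 143, 121 and 152 CPM in paw Veh, and 2.19, 0.907 and 0.996 CPM in DRG PRL_Sh against 3.39, 1.70 and 1.84 CPM in DRG Veh. The paw groups were far apart, the DRG groups overlapped, and the net shift was -4.47 ± 0.44 (edgeR adjusted p = 4.33e-05). Fos, another AP-1 subunit, had 20, 24.4 and 46.5 CPM in paw PRL_Sh against 292, 183 and 189 CPM in paw Veh, with a net shift of -2.52 ± 0.46. Egr1, a zinc-finger transcription factor, was net lower by -2.25 ± 0.42 and Nr4a2, an orphan nuclear receptor, by -0.79 ± 0.16. Nr4a3, another receptor of that family, was the one gene that was net higher, at 2.01 ± 0.67, with 0.361 CPM in DRG PRL_Sh and 1.16 CPM in DRG Veh.

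Mast cell genes were lower in paw PRL_Sh: 5 of the 7 present in both tissues fell in paw and 0 changed in DRG. Of 11, 6 were net lower and 0 net higher, and the count was the same with the median set to 0. Mcpt4, a chymase of connective tissue mast cells, had 2.95, 3.19 and 7.21 CPM in paw PRL_Sh against 28.0, 34.8 and 20.8 CPM in paw Veh, and 2.90, 2.76 and 1.96 CPM in DRG PRL_Sh against 2.99, 2.13 and 3.27 CPM in DRG Veh. The net shift was -2.51 ± 0.49 (edgeR adjusted p = 0.00255). Hdc, the enzyme that makes histamine, was net lower by -2.34 ± 0.28, and the tryptase Tpsb2 by -2.26 ± 0.32. The related tryptase Tpsab1 was present in paw only and had a net shift of -5.15 ± 0.90, but its DRG shift rests on 19 reads in DRG PRL_Sh and 1 read in DRG Veh. Its paw shift was -2.52 ± 0.36. Kit, the stem cell factor receptor that mast cells share with other cells, had a net shift of 0.29 (edgeR adjusted p = 0.375).

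Macrophage genes were net lower in 6 of 19 (31.6%, against 10.2% of all genes tested), with 0 net higher. Cd163, the haemoglobin scavenger receptor, had 6.00, 5.66 and 3.91 CPM in paw PRL_Sh against 95.2, 74.6 and 59.1 CPM in paw Veh, and 10.8, 8.12 and 8.62 CPM in DRG PRL_Sh against 41.1, 35.4 and 35.4 CPM in DRG Veh. It fell in both tissues, by more in paw, with a net shift of -1.86 ± 0.27 (edgeR adjusted p = 0.00048). Mrc1, the mannose receptor, fell in both as well and was net lower by -1.38 ± 0.24. Ptprc, the common leukocyte antigen CD45, fell by 1.55 in paw and by 1.67 in DRG and had a net shift of 0.12 ± 0.32 (edgeR adjusted p = 0.815). Among 14 neutrophil genes 4 were net lower (28.6%) and 1 was net higher (7.14%). S100a9, a calcium-binding protein of neutrophils, was net lower by -2.35 ± 0.26, and Lcn2, an iron-scavenging protein that skin cells also make, was net higher by 2.70 ± 0.41.

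Cholesterol synthesis and uptake genes moved apart between the tissues: of 17 present in both, 3 rose and 9 fell in paw, and 6 rose and 0 fell in DRG. Of 18 tested, 9 were net lower and 0 net higher, and 15 were lower with the median set to 0. Srebf2, the transcription factor that induces this pathway, had 165, 170 and 127 CPM in paw PRL_Sh against 264, 287 and 274 CPM in paw Veh, and 268, 297 and 312 CPM in DRG PRL_Sh against 231, 250 and 242 CPM in DRG Veh. PRL_Sh lay below Veh in paw and above it in DRG, with no overlap in either. It fell in paw by 0.84 and rose in DRG by 0.28, for a net shift of -1.12 ± 0.15 (edgeR adjusted p = 0.00028). Hsd17b7 and Sqle, both enzymes of the pathway, were net lower by -1.02 ± 0.14 and -0.69 ± 0.16.

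The cell bodies of sensory neurons lie in the ganglia and the paw holds their axons. The mean log2(CPM + 1) over the pan-neuronal list was 2.38 to 2.46 in paw PRL_Sh and 2.19 to 2.65 in paw Veh. In DRG it was 8.42 to 8.56 in PRL_Sh and 8.26 to 8.51 in Veh, and the groups of each tissue overlapped. The summed levels of the list, in which the highest genes weigh most, did not overlap. They were 1420 to 2857 CPM in paw PRL_Sh and 335.2 to 629.6 CPM in paw Veh. In DRG they were 19917 to 21753 CPM in PRL_Sh and 13839 to 16647 CPM in Veh. Of 26 pan-neuronal genes, 18 were present in both tissues, and 3 were net higher (11.5%) and 7 net lower (26.9%) over the whole list. Pvalb, which is also counted with the muscle genes above, was among the 3 net higher. In the scaling of 18 libraries it averaged 1762 CPM in paw PRL_Sh and 259 CPM in paw Veh. Thy1, a surface glycoprotein of neurons that fibroblasts also make, had 45.5, 40.8 and 37.9 CPM in paw PRL_Sh against 87, 81.4 and 60.5 CPM in paw Veh, and 606, 579 and 636 CPM in DRG PRL_Sh against 391, 454 and 469 CPM in DRG Veh. Neither pair of groups overlapped. It fell in paw by 0.88 and rose in DRG by 0.47, a net shift of -1.35 ± 0.18 (edgeR adjusted p = 0.000291). Of 24 nociceptor genes 2 were net lower (8.33%), near the 10.2% of all genes tested. They were Gfra2 and Ret, the receptor pair for the growth factor neurturin, at -1.40 ± 0.22 and -0.67 ± 0.20. Ret missed the test when any of 3 libraries was left out (edgeR adjusted p up to 0.0681). Scn10a had a net shift of -0.87 ± 0.72 (edgeR adjusted p = 0.38).

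**Figure D4:**
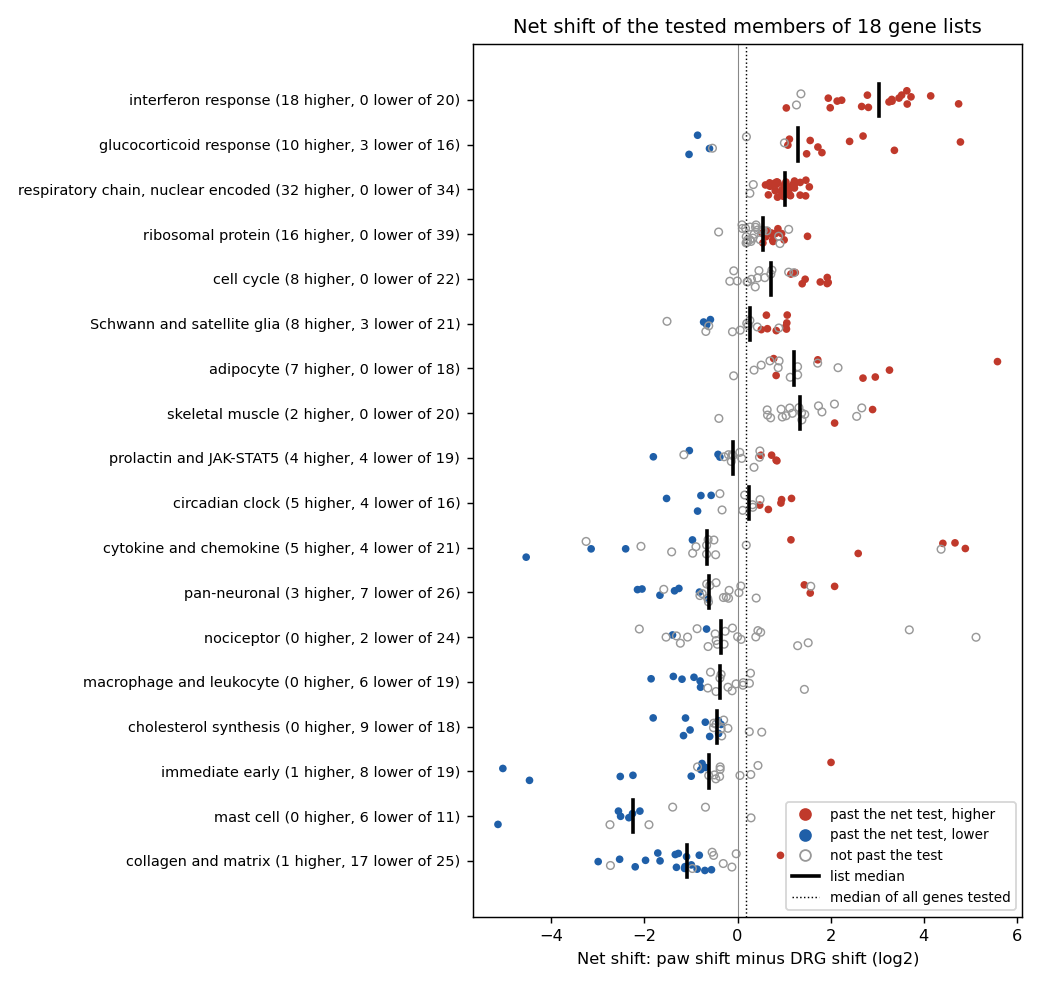
Net shift (log2) of every tested gene of 18 lists, 1 point per gene, filled where the gene passed the net test; black bars mark list medians and the dotted line marks the median of all genes tested, 0.19. The interferon list, with a median of 3.04, lies farthest to the right and the mast cell list, with a median of -2.26, farthest to the left.

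Prlr itself did not pass the net test. It had 34.5, 31.5 and 41.9 CPM in paw PRL_Sh against 98.2, 106 and 95.4 CPM in paw Veh, and 2.90, 3.83 and 4.63 CPM in DRG PRL_Sh against 11.9, 13.7 and 14.9 CPM in DRG Veh. PRL_Sh was below Veh in both tissues without overlap, by 1.47 on the log2 scale in paw and by 1.83 in DRG. The net shift was 0.35 ± 0.22 (edgeR adjusted p = 0.238). Among the 19 genes of the prolactin and JAK-STAT5 list, 4 were net higher and 4 net lower (21.1% each). Over all genes tested the shares were 23.7% and 10.2%. With the median set to 0, 3 of the list were net higher and 7 net lower. Without DRG Veh replicate 2, 2 were net lower. With no filter on low counts, which moves the median net shift to -0.12, 0 were net higher and 8 net lower with edgeR.

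Single members moved in both directions. Socs3, which blocks Janus kinases, had 27.8, 24.9 and 35.3 CPM in paw PRL_Sh against 64.2, 60.0 and 84.7 CPM in paw Veh, and 17.9, 18.4 and 13.1 CPM in DRG PRL_Sh against 14.8, 9.27 and 9.41 CPM in DRG Veh. It fell in paw by 1.24, where the groups did not overlap. In DRG the groups overlapped, and its rise of 0.56 only just passed (edgeR adjusted p = 0.0491). The net shift was -1.81 ± 0.30 (edgeR adjusted p = 0.000939). Cish, which is induced by STAT5, was net lower by -1.04 ± 0.23 (edgeR adjusted p = 0.00512). Stat5b had 142, 116 and 178 CPM in paw PRL_Sh against 86.6, 69.1 and 90.3 CPM in paw Veh, and 53.7, 52.8 and 56.1 CPM in DRG PRL_Sh against 59.5, 51.9 and 51.9 CPM in DRG Veh, with a net shift of 0.83 ± 0.20 (edgeR adjusted p = 0.00866). Bcl6, a repressor that binds STAT5 sites, Ghr, the growth hormone receptor, and Jak2 were net higher by 0.73 ± 0.16, 0.85 ± 0.22 and 0.50 ± 0.15. With no filter Stat5b had 0.51 (edgeR adjusted p = 0.0898) and Bcl6 had 0.41 (edgeR adjusted p = 0.0923). Stat5a had a net shift of 0.05 (edgeR adjusted p = 0.911).

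**Figure D5:**
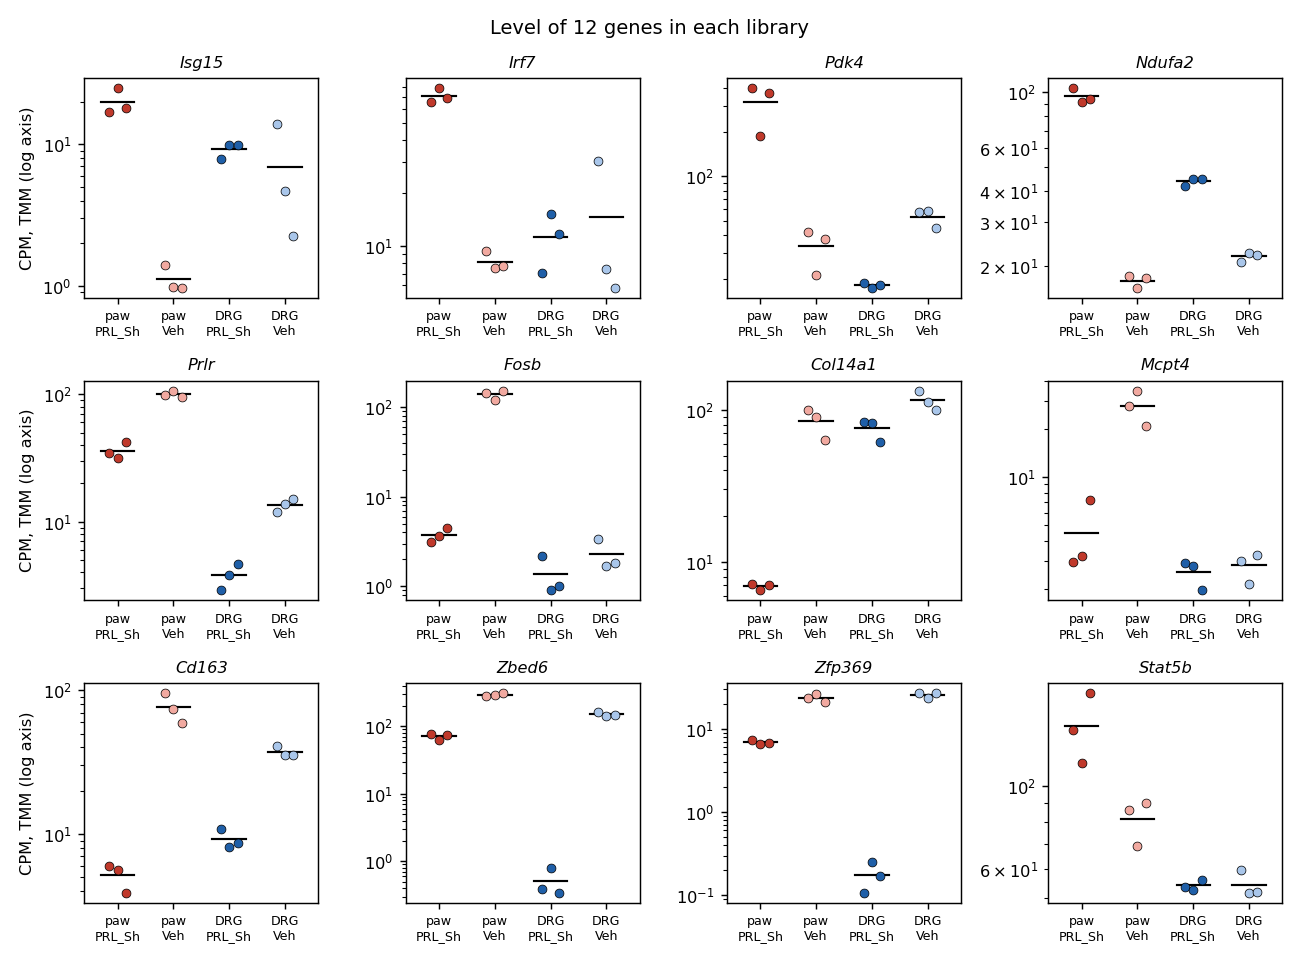
Normalised CPM of 12 genes in each library on log axes, 3 points and the group mean (line) per group, with each panel on its own axis. Fosb, Col14a1 and Mcpt4 are lower in every paw PRL_Sh library than in any paw Veh library, Isg15, Irf7, Pdk4 and Ndufa2 are higher, and Zbed6 and Zfp369 are lowest in DRG PRL_Sh.

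Some of the largest positive net shifts came from genes that were nearly lost in DRG PRL_Sh. Zbed6, a repressor of Igf2 derived from a transposon, had 78.1, 63.1 and 73.8 CPM in paw PRL_Sh against 280, 292 and 308 CPM in paw Veh, and 0.394, 0.783 and 0.343 CPM in DRG PRL_Sh against 162, 141 and 147 CPM in DRG Veh. It fell in both tissues and the net shift was 6.19 ± 0.23 (edgeR adjusted p = 1.19e-07). Zfp369, a zinc-finger protein, had 7.32, 6.53 and 6.65 CPM in paw PRL_Sh against 23.5, 26.4 and 20.8 CPM in paw Veh, and 0.108, 0.247 and 0.172 CPM in DRG PRL_Sh against 26.5, 23.3 and 26.6 CPM in DRG Veh. Its net shift was 5.36 ± 0.25, and that of Slc9a7, a sodium-proton exchanger of the Golgi, was 4.89 ± 0.48 with a DRG shift of -4.11.

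Cpeb4, which binds RNA and controls its polyadenylation, had 37, 26 and 34.3 CPM in paw PRL_Sh against 109, 110 and 103 CPM in paw Veh, and 2.44, 5.65 and 2.85 CPM in DRG PRL_Sh against 80.8, 74.1 and 79.9 CPM in DRG Veh. It fell in both tissues, and its net shift was 2.71 ± 0.32 (edgeR adjusted p = 0.000129). The longest transcripts of Cpeb4 and Zbed6 are 6303 and 5007 nt, both in the longest quartile, while that of Zfp369 is 2911 nt. In the annotation Zbed6 lies inside Zc3h11a and Eid3, net higher by at least 2.78 against the floor of 3 reads, inside Txnrd1, on the same strand in each case. Reads of these nested genes cannot be assigned with certainty. Ibsp, a bone matrix protein, and Cyp11a1, the enzyme that begins steroid synthesis, also ranked among the largest net shifts, at 6.04 ± 1.98 and -7.26 ± 2.20, but both depended on 1 library. Ibsp had 12.4 CPM in paw PRL_Sh replicate 3 and at most 1.14 CPM in the other paw libraries, and without it the net shift was 3.09 (edgeR adjusted p = 0.0990). Cyp11a1 had 17.8 CPM in DRG PRL_Sh replicate 1 and at most 0.577 CPM in the other DRG libraries, and without it the net shift was -3.19 (edgeR adjusted p = 0.0203).

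Hormone receptors, clock genes and regulators of translation showed small shifts in both directions. Of 13 hormone receptor genes 4 were net higher (30.8%) and 1 net lower (7.69%), against 23.7% and 10.2% of all genes tested. Among them were Nr3c1, the glucocorticoid receptor, at 0.71 ± 0.14, Nr3c2, the mineralocorticoid receptor, at 1.02 ± 0.22, and Thra, a thyroid hormone receptor, at -0.49 ± 0.12. Of 16 clock genes 5 were net higher (31.25%) and 4 net lower (25%), and 3 were higher when any of 6 libraries was left out. Clock, a core activator, fell in paw by 0.87 and in DRG by 2.03, a net shift of 1.16 ± 0.12 (edgeR adjusted p = 5.41e-05). The related repressors Nr1d1 and Nr1d2 differed in sign, at -0.57 ± 0.12 and 0.93 ± 0.11. Of 29 translation control genes 9 were net higher (31.0%) and 6 net lower (20.7%), and 6 and 10 with the median set to 0. Eif4a2, a helicase of translation initiation, was net higher by 0.82 ± 0.13 and Rptor, the raptor subunit of mTOR complex 1, was net lower by -0.49 ± 0.10.

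Genes present in paw only gave fewer calls, with 110 of 1132 past the net test (9.72%), 79 higher (6.98%) and 31 lower (2.74%). For them the DRG term rests on under 1 CPM, so that the subtraction takes away little that is measured. Saa1, an acute-phase protein, had 22.4, 42.4 and 39.9 CPM in paw PRL_Sh against 0.563, 0.178 and 2.14 CPM in paw Veh, and at most 0.409 CPM in any DRG library. Its net shift was 5.29 ± 1.56 (edgeR adjusted p = 0.0215), and it missed the test without DRG Veh replicate 1 or 3. Cxcl13, a chemokine that attracts B cells, and Ccl5, a chemokine that attracts T cells, were net higher by 4.41 ± 0.96 and 4.68 ± 1.06, and without DRG Veh replicate 1 had values of 3.43 (edgeR adjusted p = 0.0722) and 2.30 (edgeR adjusted p = 0.209). Capns2, a calpain subunit that lies inside Lpcat2, was net higher by 4.56 ± 0.57. The DRG term of Cxcl13 rests on 11 reads in DRG PRL_Sh and 6 reads in DRG Veh.

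Among the paw-only genes that were net lower were a few cytokine and immediate early genes. Il1b, a cytokine of activated myeloid cells, had 0.636, 1.79 and 4.37 CPM in paw PRL_Sh against 9.20, 12.3 and 9.54 CPM in paw Veh. Ptgs2, the inducible cyclooxygenase, had 0.864, 1.26 and 2.05 CPM in paw PRL_Sh against 20, 24.5 and 14.2 CPM in paw Veh. Neither pair of groups overlapped, and the net shifts were -3.15 ± 0.95 (edgeR adjusted p = 0.0244) and -2.68 ± 0.77 (edgeR adjusted p = 0.0198). Without DRG PRL_Sh replicate 2 both missed the test, at -2.66 (edgeR adjusted p = 0.0695) and -2.03 (edgeR adjusted p = 0.0956), and Il1b also did without DRG Veh replicate 2. Il6, a cytokine of the acute phase, and Cxcl1, a chemokine for neutrophils, were net lower by -4.54 ± 0.77 and -2.40 ± 0.58. Fosl1, also an AP-1 subunit, fell in paw by 2.17, and its net value of -5.04 rests on a single read in DRG Veh. Has1, which makes hyaluronan, had a net value of -2.29 ± 0.81 (edgeR adjusted p = 0.0466) that missed the test when any of 7 libraries was left out.

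Of 1322 genes present in DRG only, 142 passed the net test (10.7%), 66 higher (4.99%) and 76 lower (5.75%). With presence judged from the Veh libraries alone the direction of this split turned, to 103 higher and 55 lower, and the paw-only split was 43 higher and 39 lower. Those that were net higher through the DRG were Ankfn1, which had 1.04, 1.15 and 1.06 CPM in DRG PRL_Sh against 47.5, 45.0 and 50.3 CPM in DRG Veh, and Odz1 and Kcnq3. Kcnq3 is a subunit of the M-type potassium channel that limits firing of neurons. Their DRG shifts were -5.45, -6.15 and -4.16. The paw levels of Ankfn1 were 0.0967 to 0.698 CPM in PRL_Sh and 0.357 to 0.487 CPM in Veh. Calb1, a calcium buffer, was called higher from a handful of paw reads: it had 0.455, 0.242 and 0.372 CPM in paw PRL_Sh and no read in paw Veh, and against a floor of 3 reads over that group its net shift was at least 1.66. Clvs2, a vesicle protein of neurons, had no read in paw PRL_Sh and 0.563, 0.713 and 0 CPM in paw Veh, and against the floor its net shift was at most -3.31.

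The female PRL libraries, made with the rRNA-depletion kit as Veh was, give the same contrast without a kit difference. They come from mice given prolactin, with 3 libraries per tissue. These values share Veh or PRL_Sh libraries with the net shift above and are not independent of it. The net shift of PRL against Veh passed in 286 of 15908 genes (1.8%), 237 higher (1.49%) and 49 lower (0.308%). It passed in 163 without DRG Veh replicate 1. That of PRL_Sh against PRL, which includes the kit difference, passed in 6786 (42.7%), 27.4% as higher and 15.3% as lower. Irf7 had a net shift of 2.97 for PRL against Veh (edgeR adjusted p = 0.0377) and 0.47 for PRL_Sh against PRL (edgeR adjusted p = 0.594). Ifit3 had 3.14 (edgeR adjusted p = 0.0516) and 0.98 (edgeR adjusted p = 0.279), and Isg15 had 2.33 (edgeR adjusted p = 0.135) and 1.36 (edgeR adjusted p = 0.0969). Without DRG Veh replicate 1 the PRL against Veh values were 1.85 for Irf7 (edgeR adjusted p = 0.0605), 1.97 for Ifit3 (edgeR adjusted p = 0.0659) and 1.37 for Isg15 (edgeR adjusted p = 0.278), so that none of these 3 passed. In paw, Isg15 averaged 19.9 CPM in PRL_Sh, 3.44 CPM in PRL and 1.12 CPM in Veh, and in DRG 9.21, 4.14 and 6.76 CPM in the same order.

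Fkbp5 and Zbtb16 were net higher for PRL against Veh by 1.26 (edgeR adjusted p = 0.0107) and 1.54 (edgeR adjusted p = 0.0399), beside 0.52 (edgeR adjusted p = 0.0695) and 1.79 (edgeR adjusted p = 0.00117) for PRL_Sh against PRL. For PRL against Veh without DRG Veh replicate 1, Zbtb16 had 1.61 (edgeR adjusted p = 0.0640). Hsd17b7 was net lower for PRL against Veh by -0.81 (edgeR adjusted p = 0.0149). Col14a1 had 0.58 (edgeR adjusted p = 0.237) for PRL against Veh and -3.61 (edgeR adjusted p = 6.33e-08) for PRL_Sh against PRL. Fosb had 1.06 (edgeR adjusted p = 0.743) and -5.57 (edgeR adjusted p = 0.00193), and Ndufa2 had -0.02 (edgeR adjusted p = 0.978) and 1.44 (edgeR adjusted p = 1.95e-06). Zbed6 had -0.15 (edgeR adjusted p = 0.735) and 6.30 (edgeR adjusted p = 1.32e-10). Prlr had -0.60 (edgeR adjusted p = 0.385) and 0.91 (edgeR adjusted p = 0.0282). Whether the kit or a difference between the 2 prolactin groups gives the PRL_Sh values cannot be told apart.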

How the data were processed

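RNA was sequenced from hind paw and DRG as 50 nt single reads with dUTP strand marking, per the labels' protocols. The authors deposited whole-number read counts per gene for each library, not normalised, with 22609 genes per file. The submitters' processing notes name bcl2fastq, TopHat2, HTSeq and the build mm9, without versions. The sources used here give neither the strand nor the overlap setting of the counting. Summary lines of the counting were kept out of library sizes and tests.

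The counts of the 12 libraries were filtered with filterByExpr, scaled by TMM and fitted with edgeR 4.0.16 (R 4.3.3, limma 3.58.1) as 4 groups. The quasi-likelihood test was applied to the paw shift, the DRG shift and their difference, with Benjamini-Hochberg adjustment over all 16055 genes and a threshold of 0.05. Shifts are log2 ratios, and ± is the absolute shift divided by the square root of its F statistic, not a fitted standard error. Levels are TMM-scaled CPM computed here from the deposited counts. A gene was present in a tissue at a mean of at least 1 CPM. Groups with no read were set to a floor of 3 reads over the group, which covers counting error only. Lengths and overlaps came from GENCODE M21 and promoters from RefSeq on GRCm38.p6, used for names and sequences and not joined to the files by coordinates. On simulated counts for 15878 genes, the net test recovered 42.4% of 99 genes changed 2-fold and 74.7% of 99 genes changed 4-fold, and 12.1% of its calls were false.

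Named genes were Prlr, the 10 largest net shifts each way among genes present in both tissues whose mean log2 CPM was 1 or more (predicted and clone names passed over), the 5 largest each way for genes of 1 tissue, up to 4 genes per list past the test by p, and markers and untailed RNAs as checks. Other list members named beside a count, such as Mt1, Dusp1, Lox, Dcn, Nr4a3, Kit, Ghr, Jak2 and Stat5a, were picked after their values were seen. The members and the 32 gene lists were chosen with earlier results of these data known. Alternatives were DESeq2 1.42.0, limma voom with quality weights, other scalings and filters, a replicate block, a muscle covariate, the 18 female libraries, and each library left out in turn.

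Some genes are not reported here.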

Additional observations from a re-analysis of the deposited data

Results flagged for a closer look

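In 21 of the 169 genes named, and in 436 of all 16055 tested, the paw shift and the DRG shift each passed its own edgeR test with opposite signs, and the net contrast tested the difference between the tissues. These counts were taken with TMM scaling only, and the sign of a small single-tissue shift depends on the scaling. Groups of 3 libraries are too small for a test of single far libraries.

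In 12 of them PRL_Sh was above Veh in paw and below it in DRG. Their net shifts on the log2 scale were 6.43 for Gbp10, 5.59 for Ucp1, 4.79 for Pdk4, 4.56 for Capns2, 3.32 for Rsad2, 2.45 for Hist1h4i, 2.30 for Cacna2d1, 1.81 for Fkbp5, 1.73 for Tsc22d3, 1.47 for Uqcrb, 1.00 for Rps20 and 0.93 for Nr1d2. The values of Gbp10 and Rsad2 were 3.19 and 2.64 without DRG Veh replicate 1, beside paw shifts of 3.40 and 2.16 with all 12 libraries. Little of the DRG fall of Gbp10 was therefore left without that library. The DRG fall of Rsad2 only just passed with it (edgeR adjusted p = 0.0494). Ucp1 was present in neither tissue by the rule of 1 CPM.

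In the other 9, PRL_Sh was below Veh in paw and above it in DRG. Their net shifts were -1.12 for Srebf2, -1.35 for Thy1, -1.59 for Miat, -1.81 for Socs3, -2.35 for S100a9, -2.83 for Syt13, -4.66 for Dbndd1, -4.86 for Ttc9b and -5.15 for Tpsab1. Dbndd1 and Ttc9b had no read in paw PRL_Sh, and against a floor of 3 reads over that group their net shifts were at most -1.85 and -2.05. Tpsab1 had 1 read in DRG Veh. The DRG rises of Socs3 and Srebf2 only just passed (edgeR adjusted p = 0.0491 and 0.0438), and the DRG groups of Socs3 overlapped.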

How the results depend on the processing

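Net calls among genes present in both tissues numbered 5135, and 4315 to 5216 with 1 library left out. Over all genes they numbered 5432, and 4563 to 5517. The ranges with 1 library left out were 80 to 124 for genes of paw only, 107 to 158 for genes of DRG only, 9106 to 10076 for the paw shift and 7024 to 8438 for the DRG shift. The 110 paw-only calls became 198 with limma voom and 308 with presence set at 5 CPM, and the 142 DRG-only calls became 220, 370 and, with a muscle covariate, 88. The second setting changes which genes enter each class; for the others the cause was not tested. For PRL against Veh 286 calls became 163 without DRG Veh replicate 1. The share of higher calls among genes present in both tissues, 70.5%, was 47.5% with DESeq2, 47.2% with RLE scaling, 49.1% with upper quartile scaling, 56.6% with TMM within each tissue and 32.5% with no filter. Hist1h1c had a net shift of 0.31, and -0.011 with no filter (edgeR adjusted p = 0.999901). With no filter the median net shift of genes present in both tissues also moved, from 0.20 to -0.12. The cause for Hist1h1c was not tested, and its call was lost in 19 of 25 alternatives besides this change of sign. With a replicate block 5408 genes passed, and 4600 with the block within treatment; libraries of 1 number and treatment had correlations of -0.16 to 0.23 between paw and DRG over 6 pairs. Between PRL_Sh and Veh of 1 number they were 0.13, 0.47 and 0.33 in paw and 0.06, -0.08 and 0.00 in DRG. The muscle genes summed to 57465, 38714 and 73695 CPM in paw PRL_Sh and to 45891, 18540 and 71500 CPM in paw Veh, the same order by number. Whether muscle content gives the paw correlations was not tested. With 3 libraries per group, these values cannot settle whether the numbers pair the libraries. The block ended 3 named calls, those of Has1, Hist1h1c and Myh11. Of 139 named genes past the net test, 103 kept their call in all 25 alternatives; most were lost with the muscle covariate, 18, and with 18 libraries, 14. The simulated data held 99 genes changed 2-fold and 99 changed 4-fold, far fewer than the 5432 net calls here. Their 42.4% recovery of 2-fold changes need therefore not hold for these libraries. A missing call does not show that a gene was unchanged. The simulated share of false calls, 12.1%, was above the threshold of 0.05. It rests on 16 false calls and depends on how many genes are changed, so it need not hold for these libraries either. How many of the calls here are false was not tested.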

Other observations

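Cytokines and chemokines moved in both directions: of 21 genes tested 5 were net higher (23.8%) and 4 net lower (19.0%). Over all genes tested the shares were 23.7% and 10.2%. Without DRG Veh replicate 1, 2 cytokine and chemokine genes were net higher and 7 net lower. Of 9 T and B lymphocyte genes 2 were net higher (22.2%), near the 23.7% of all genes tested. With the median set to 0, 1 was net higher, and without DRG Veh replicate 1, 1 was higher and 1 lower. Of 17 vascular genes 3 were net lower (17.6%, against 10.2% of all genes tested).

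Antigen presentation, with 12 genes, complement, with 13, and the cornified envelope, with 17, had 0 net calls with edgeR. At an unadjusted p under 0.05, 1 antigen presentation gene was higher and 0 lower, 0 complement genes were higher and 2 lower, and 0 cornified envelope genes were either. DESeq2 called 0 antigen presentation genes and 2 complement genes, both lower, and limma voom called 0 and 3. Without DRG Veh replicate 1, 4 complement genes were net lower.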
